A study of Mus musculus with 3 samples.

Results

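The secreted and membrane-bound metalloproteases of the MMP, ADAM and ADAMTS families and their TIMP inhibitors were followed across 3 mouse cultures. The families were chosen with earlier results of these data known. Within them, members were chosen by gene symbol alone: every gene whose symbol was Mmp, Adam, Adamts, Adamtsl or Timp followed by a number. This gave 84 of the 47725 genes in the tables, made up of 23 MMPs, 33 ADAMs, 19 ADAMTS, 5 ADAMTS-like genes and 4 TIMPs. The cultures came from the mouse embryonic stem cell lines BM (Barhl1 mutant), BEM (mutant in the E3 E-box site) and WT (wild type). Otic progenitors of each line, precursors of inner ear cells, had been seeded onto stromal cells of the embryonic chicken utricle that could no longer divide. The medium of all 3 cultures held retinoic acid (1 µM) and EGF (25 ng/ml), and RNA was taken at culture day 9, on the way to hair cell-like cells. Each line was represented by 1 library, so no difference below has a replicate check and none was tested. The sources used here do not say what kind of mutation BM carries, nor whether reads of the chicken cells were set apart.

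MMPs are zinc-dependent proteases that cut collagens, gelatin, laminins and other matrix proteins, and most are made as inactive proenzymes. ADAMs are membrane-anchored relatives, several of which shed the outer parts of growth factors, cytokines and receptors. ADAMTS proteases are secreted and cut proteoglycans and procollagens, whereas ADAMTS-like proteins share their ancillary domains but have no protease domain. TIMPs bind the active site of MMPs, and Timp3 also inhibits several ADAM and ADAMTS proteases. In the developing inner ear, matrix remodelling accompanies the folding of the otic epithelium and the growth of its surrounding mesenchyme.

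Library totals were 20111794 reads in BM, 23813123 in BEM and 21555823 in WT, as recovered from the deposited FPKM (reads scaled by gene length and library total). A gene was taken as measured where its 3 libraries averaged 1 FPKM or more, which held for 12875 genes. BEM and BM lay close to counting noise: the mean chi-square per gene between their reads was 1.71 over all measured genes, where counting alone gives 1, and 407 between BM and WT. Barhl1 stood at 95.1 FPKM in BM, 0.0107 in BEM and 126 in WT. Of 8 hair cell marker genes 4 were measured, with Tmc1 at 0 reads in all 3 libraries. Their summed level was 249 FPKM in BM, 253 in BEM and 277 in WT, nearly all of it Atoh1, whose product drives hair cell differentiation. The summed marker lists of macrophages, smooth muscle and fibroblasts moved further. The 13 macrophage markers summed to 1872 FPKM in BM, 1921 in BEM and 12.7 in WT, where C1qa, Itgam and Spi1 were at 0 reads. The 8 smooth muscle markers summed to 3771 FPKM in BM, 3812 in BEM and 125 in WT. The 9 fibroblast markers summed to 5199.7 FPKM in BM, 5092 in BEM and 2457 in WT. In bulk RNA, fewer cells of a type and less RNA per cell cannot be told apart.

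Of the 84 genes, 40 were measured and 44 had a mean under 1 FPKM. The measured ones were 12 MMPs, 10 ADAMs, 11 ADAMTS, 4 ADAMTS-like genes and 3 TIMPs. Of these 40 genes, 5 lay under 1 FPKM in at least 1 library (Mmp10 and Adam22 in BM and BEM, Adamts5, Mmp17 and Adamtsl3 in WT). Of the genes under the mean, 9 had 0 reads in all 3 libraries, 20 never exceeded 19 reads and 15 reached at least 20 reads in a library.

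A difference was counted when the ratio of FPKM plus a pseudocount of 0.5 reached 2-fold, a log2 ratio of 1, in a measured gene. In BM against WT, 13 of the 40 measured members were higher, which is 32.5%, beside 10.5% of all 12875 measured genes. A further 7 members were lower, 17.5%, beside 15.3% of all measured genes. In BEM against WT, again 13 members were higher, beside 10.7% of all measured genes, and 7 were lower, beside 15.3%. Both comparisons share the WT library, and BM and BEM lay close together, so the second adds little of its own. Among measured genes, the share of members higher than in WT was thus above the background, and the share lower was near it. The families were chosen with earlier results of these data known, so these shares are a description and not a test. The mean holds both BM and BEM but only WT beside them, so a gene high in WT alone passed the filter less easily. Adam11 and Mmp25, lower in BM and BEM, fell under it. Without the filter, 14 of the 84 members were higher in BM and 13 in BEM, and 9 were lower in each. These counts have no share over all unfiltered genes beside them, so they cannot be set against a background. The median log2 ratio of the members was 0.27 in both BM and BEM against WT, beside −0.08 and −0.07 over all measured genes. The median size of the log2 ratio, whatever its sign, was 1.00 in BM and 1.05 in BEM, beside 0.52 over all measured genes in each. For a single gene, the fold below is the plain ratio of its FPKM values, with a 95% exact interval from the recovered reads that covers counting error only. For 20 members, among them Mmp2, Mmp3, Mmp10, Mmp13, Mmp14, Mmp25, Adam5, Adamts5 and Adamts19, whole reads came only at a length other than the annotated ones. Their read numbers may be off by a whole factor, which leaves the ratio as it is but changes the width of its interval.

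**Figure D1:**
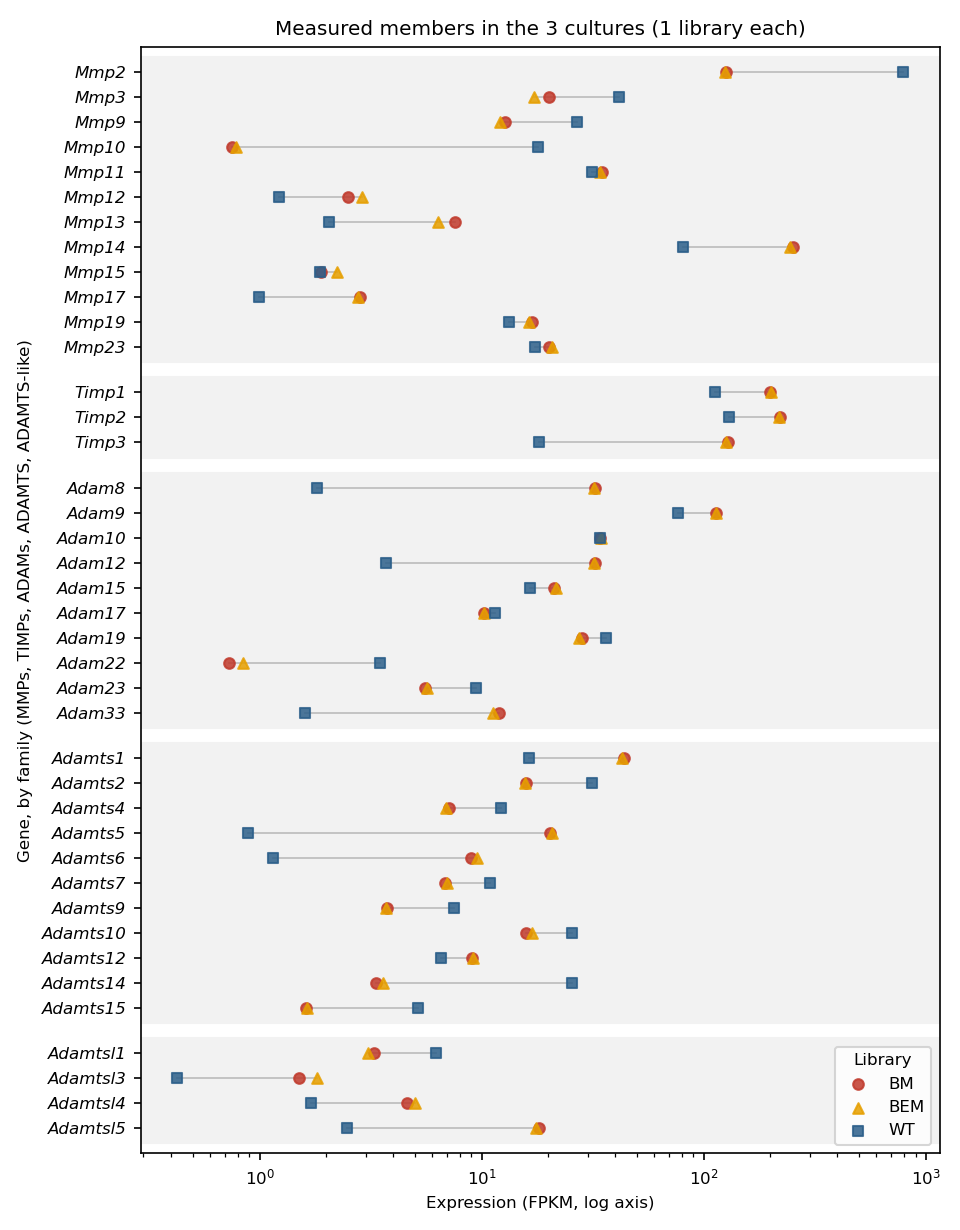
Expression of the 40 measured members in BM (circles), BEM (triangles) and WT (squares), in FPKM on a log axis, 1 library each, ordered by family; grey lines join the lowest and highest library. BM and BEM nearly coincide throughout, Mmp2 is highest in WT at 792 FPKM, and Adam8, Adamts5, Adam12 and Timp3 stand far higher in BM and BEM than in WT.

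Both gelatinases were lower in the mutant cultures, and of the 3 measured membrane-type MMPs, Mmp14 and Mmp17 were higher. Mmp2, gelatinase A, stood at 126 FPKM in BM and 125 in BEM, against 792 in WT. It was the MMP with the most RNA in WT, ranking number 28 of all genes there, against number 347 in BM and 362 in BEM. Its level was 6.29-fold lower in BM (interval 6.14 to 6.45) and 6.35-fold lower in BEM (6.21 to 6.497), from 7693, 9023 and 51887 reads in BM, BEM and WT. The gene lies on the plus strand of chromosome 8 from 92827291 to 92853420 in GRCm38.

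Mmp14, a membrane-type collagenase that activates proMMP2 at the cell surface in a complex with Timp2, had 252 FPKM in BM and 244 in BEM, against 80.7 in WT. Its level was thus 3.12-fold higher in BM (3.04 to 3.21) and 3.02-fold higher in BEM (2.94 to 3.10). The gene lies on the plus strand of chromosome 14 from 54431612 to 54445364 in GRCm38. Within a library the ratio of Mmp2 to Mmp14 does not depend on how libraries are scaled to each other. This ratio of FPKM was 0.49996 in BM and 0.512 in BEM, against 9.82 in WT, so the order of the enzyme and its activator was opposite in mutant and WT cultures.

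Mmp9, gelatinase B, was at 12.8 FPKM in BM and 12.2 in BEM, against 26.8 in WT. It was 2.10-fold lower in BM (1.94 to 2.27) and 2.21-fold lower in BEM (2.05 to 2.38). Both gelatinases were therefore counted as lower in each mutant culture, though Mmp9 lay close to the 2-fold limit: in BM its call was lost under each of the 3 other scalings of the libraries tried, and in BEM under TMM scaling. Mmp17, a membrane-type MMP held by a lipid anchor, was at 2.83 FPKM in BM, 2.77 in BEM and 0.995 in WT. This was 2.85-fold higher in BM (2.34 to 3.48) and 2.78-fold higher in BEM (2.29 to 3.38). Mmp15, another membrane-type member, was at 1.89 FPKM in BM, 2.22 in BEM and 1.88 in WT, all within 2-fold. Mmp16 stayed just under the mean of 1 FPKM, with 1.04 FPKM in BM, 1.13 in BEM and 0.792 in WT.

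Mmp25, a lipid-anchored MMP known from leukocytes, was also under that mean, with 13 reads in BM, 10 in BEM and 164 in WT. Its level was 11.8-fold lower in BM (6.69 to 22.6) and 18.1-fold lower in BEM (9.61 to 38.5). Beside it, the macrophage sums given above were higher in BM and BEM than in WT, and the 7 neutrophil markers, none of them measured, summed to 0.273 FPKM in BM and 0.424 in BEM, against 1.78 in WT. The part of those cells in the level of Mmp25 was not tested.

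Of the 3 stromelysins, Mmp10 (stromelysin-2) differed most and Mmp11 (stromelysin-3) least. Mmp10 was at 0.752 FPKM in BM and 0.781 in BEM, against 18.0 in WT, from 26, 32 and 666 reads. It was 23.9-fold lower in BM (16.2 to 36.9) and 23.0-fold lower in BEM (16.1 to 33.9), the largest difference in the lower direction among the measured members. Mmp3, stromelysin-1, was at 20.05 FPKM in BM and 17.2 in BEM, against 41.7 in WT. It was 2.08-fold lower in BM (1.90 to 2.27) and 2.42-fold lower in BEM (2.21 to 2.64), and in BM its call was also lost under each of the 3 other scalings. Mmp11, which furin activates inside the cell, was at 34.8, 34.3 and 31.5 FPKM in BM, BEM and WT, and so stayed within 2-fold.

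Mmp13, collagenase-3, was the only measured collagenase. It had 7.62 FPKM in BM and 6.36 in BEM, against 2.05 in WT, and was 3.72-fold higher in BM (3.03 to 4.61) and 3.11-fold higher in BEM (2.52 to 3.85). The other collagenases had few reads: 6, 9 and 7 for Mmp8 in BM, BEM and WT, 3, 8 and 14 for Mmp1b, and 0, 0 and 3 for Mmp1a.

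Mmp12, the elastase of macrophages, was at 2.51 FPKM in BM and 2.89 in BEM, against 1.22 in WT. Its level was 2.06-fold higher in BM (1.72 to 2.47) and 2.37-fold higher in BEM (2.003 to 2.82). With the pseudocount its log2 ratio was 0.81 in BM and 0.98 in BEM, so it was not counted as 2-fold apart. Beside it, the 12 measured macrophage markers were all higher than in WT in both mutant cultures, with a median log2 ratio of 5.24 in BM and 5.27 in BEM, and their part in the level of Mmp12 was not tested. Mmp19 (16.9, 16.3 and 13.2 FPKM in BM, BEM and WT) and Mmp23 (20.1, 20.8 and 17.4 FPKM) stayed within 2-fold. Mmp28, epilysin, lay under the mean with 0.693, 0.856 and 0.886 FPKM.

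Mmp13, Mmp12, Mmp3, Mmp10, Mmp8, Mmp27, Mmp1a, Mmp1b, Mmp20 and Mmp7 form 1 cluster of 10 genes over 427 kb of chromosome 9. Neighbours in this cluster did not share a direction. Mmp13, at one end (7272514 to 7283331 in GRCm38), was higher in BM and BEM than in WT. Mmp3 (7445822 to 7455975) and Mmp10 (7502352 to 7510240), in the middle, were lower. Mmp27 had few reads, 27 in BM, 26 in BEM and 1 in WT, giving ratios of 28.9 in BM (4.77 to 1185) and 23.5 in BEM (3.87 to 965). Mmp20, the enamel protease, had 0 reads in all 3 libraries. Exons of Mmp12 and Mmp1b overlap by 157 bases on opposite strands, and the sources used here do not say whether reads were counted by strand.

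**Figure D2:**
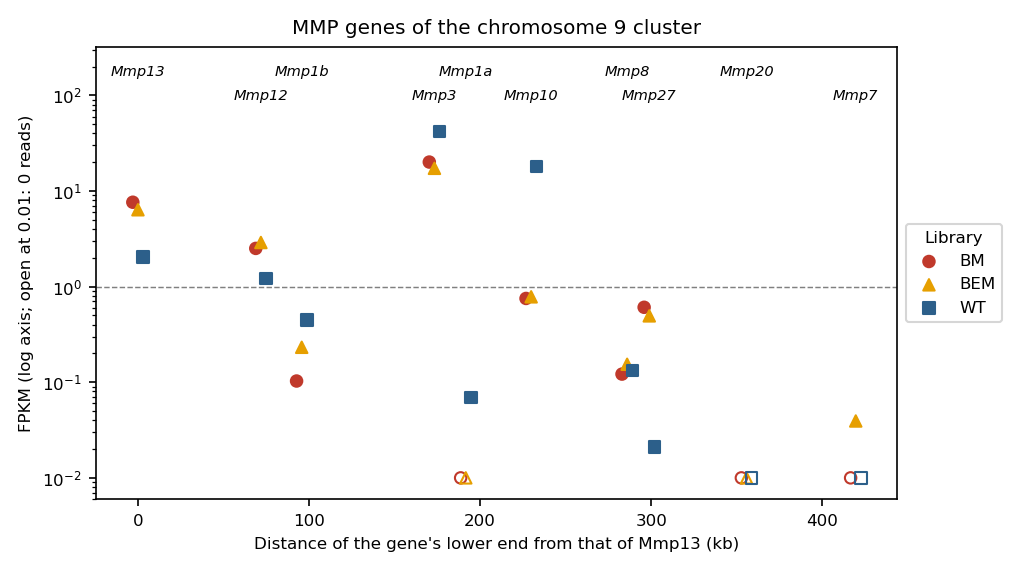
FPKM (log axis) of the 10 MMP genes of the chromosome 9 cluster against the distance of each gene from Mmp13 in kb, in BM (circles), BEM (triangles) and WT (squares); points of the 3 libraries are set slightly apart and open points mark 0 reads. Mmp13 and Mmp27 are higher in BM and BEM than in WT, whereas Mmp3 and Mmp10 are lower.

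Several genes of this cluster are known targets of activator protein 1, the Fos and Jun dimers, which bind the letters TGANTCA. The 250 bases before the transcription start of Mmp13, Mmp3 and Mmp10 are shown because these measured neighbours differed in opposite directions. The sequences are RefSeq promoters of GRCm38.p6 on the plus strand, chr9:7272264-7272513, chr9:7445572-7445821 and chr9:7502092-7502341, with matches to TGANTCA and TATAAA in capitals.
Mmp13: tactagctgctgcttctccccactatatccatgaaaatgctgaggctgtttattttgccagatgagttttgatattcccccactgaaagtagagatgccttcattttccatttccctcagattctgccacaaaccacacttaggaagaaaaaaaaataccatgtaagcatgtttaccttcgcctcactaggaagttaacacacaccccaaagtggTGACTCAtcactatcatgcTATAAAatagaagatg
Mmp3: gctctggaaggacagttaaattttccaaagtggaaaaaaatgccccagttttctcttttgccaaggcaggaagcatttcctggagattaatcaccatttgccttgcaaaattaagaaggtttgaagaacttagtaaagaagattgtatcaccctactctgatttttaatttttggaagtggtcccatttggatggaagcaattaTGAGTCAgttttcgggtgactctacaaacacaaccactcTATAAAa
Mmp10: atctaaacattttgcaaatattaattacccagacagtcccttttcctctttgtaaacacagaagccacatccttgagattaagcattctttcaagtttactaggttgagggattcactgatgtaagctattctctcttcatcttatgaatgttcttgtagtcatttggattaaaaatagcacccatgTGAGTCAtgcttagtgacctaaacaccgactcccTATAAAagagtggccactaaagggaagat
The TGANTCA match began 35 bases upstream of the start in Mmp13, 46 in Mmp3 and 63 in Mmp10, and each window also held TATAAA between that match and the start. Windows were found for 53 of the 84 members, with both strands searched and a gene counted if any of its windows held the letters. TGANTCA was present in 8 of the 10 cluster genes and in 4 of the other 43 members, beside 7.82% of 27025 genes. TATAAA was present in 7 of the 10 cluster genes and in 6 of the other 43 members, beside 14.3% of all genes. Mmp13, higher in the mutant cultures, and Mmp3 and Mmp10, lower, all hold both sets of letters. Mmp27, with more reads in BM and BEM than in WT, and Mmp8 hold neither, and Mmp12 holds no TATAAA. A match describes the sequence and is not a measured binding site.

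Of the 3 measured inhibitors, Timp3 differed most. Timp3, which binds to the matrix, was at 128 FPKM in BM and 126 in BEM, against 18.1 in WT. It was 7.11-fold higher in BM (6.85 to 7.38) and 6.997-fold higher in BEM (6.74 to 7.26). The gene lies on the plus strand of chromosome 10 from 86300372 to 86349506 in GRCm38. It lies within Syn3 on the opposite strand and shares 1733 exonic bases with it, but Syn3 itself was at 0.061, 0.068 and 0.053 FPKM in BM, BEM and WT.

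Timp1, a secreted inhibitor that acts poorly on Mmp14, was at 199 FPKM in BM and 202 in BEM, against 112 in WT. It was 1.77-fold higher in BM (1.68 to 1.87) and 1.80-fold higher in BEM (1.71 to 1.90). Timp2 was at 220.3 FPKM in BM and 217 in BEM, against 130.5 in WT, 1.69-fold higher in BM (1.65 to 1.73) and 1.67-fold higher in BEM (1.63 to 1.71). Both had counting intervals above a ratio of 1 but stayed within 2-fold. Timp4 was barely detected, with 1 read in BM, 0 in BEM and 19 in WT. Its level was 17.7-fold lower in BM (2.82 to 737). With the 0 reads in BEM taken as a floor of 3, it was 6.997-fold lower there. The counting interval in BEM began at 5.16-fold lower and had no upper end.

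The summed level of the TIMPs was 547 FPKM in BM and 546 in BEM, against 261 in WT. That of the MMPs was 501 FPKM in BM and 487 in BEM, against 1032 in WT. The TIMP sum over the MMP sum, a ratio within each library, was therefore 1.09 in BM, 1.12 in BEM and 0.253 in WT. Mmp2 carried the difference in the MMP sum: without it the other MMPs summed to 375 FPKM in BM and 363 in BEM, against 240.1 in WT. Mmp2 made up 25.1% of the MMP sum in BM, 25.6% in BEM and 76.7% in WT, and Mmp14 made up 50.3%, 50.0% and 7.81%. These sums are of RNA and do not measure protein or activity.

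**Figure D3:**
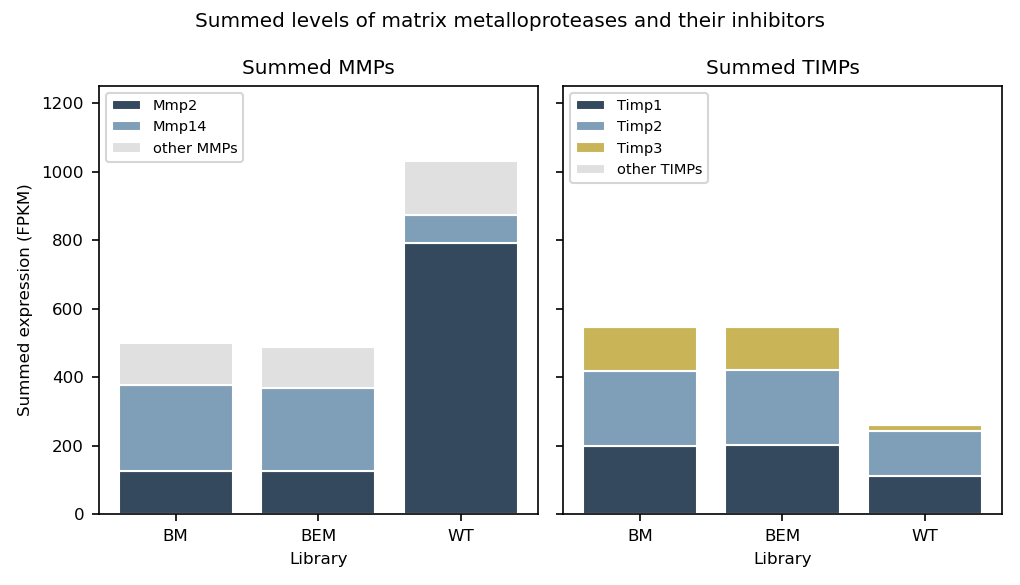
Summed FPKM of the 23 MMPs (left) and the 4 TIMPs (right) in BM, BEM and WT, 1 library each, with the leading genes as stacked parts. The MMP bar is 501 in BM, 487 in BEM and 1032 in WT, mostly Mmp2 in WT, whereas the TIMP bar is 547, 546 and 261.

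Among the measured ADAMs, the widely expressed sheddases differed little and Adam8, Adam12 and Adam33 differed most. Adam10, which cuts Notch receptors and many other membrane proteins, was at 34.0 FPKM in BM, 34.4 in BEM and 34.1 in WT. Its ratio to WT was 0.996 in BM (0.9505 to 1.04) and 1.01 in BEM (0.963 to 1.05). Adam17, which releases TNF and ligands of the EGF receptor, was at 10.3, 10.3 and 11.5 FPKM in BM, BEM and WT, 1.12-fold lower in both (1.05 to 1.20). Adam9, the ADAM with the most RNA in each library, was at 113 FPKM in BM and 114 in BEM, against 76.4 in WT. Adam15 (21.2, 21.5 and 16.5 FPKM) and Adam19 (28.2, 27.6 and 36.2 FPKM) also stayed within 2-fold.

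Adam8, known for its expression in leukocytes and osteoclasts, was at 32.6 FPKM in BM and 32.2 in BEM, against 1.82 in WT. It was 17.9-fold higher in BM (15.4 to 20.9) and 17.7-fold higher in BEM (15.2 to 20.6), from 3037, 3554 and 182 reads. The gene lies at 139978932 to 139992562 of chromosome 7 in GRCm38, on the minus strand. The macrophage sums given above moved the same way, and the 6 osteoclast markers summed to 49.8 FPKM in BM, 49.3 in BEM and 10.2 in WT, with Calcr and Dcstamp at 0 reads in BM and WT. The part of these cells in the level of Adam8 was not tested.

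Adam12, known from muscle, bone and mesenchymal precursors, was at 32.5 FPKM in BM and 32.1 in BEM, against 3.71 in WT. It was 8.76-fold higher in BM (8.16 to 9.42) and 8.66-fold higher in BEM (8.06 to 9.30). Adam33, known from smooth muscle and mesenchyme, was at 11.98 FPKM in BM and 11.3 in BEM, against 1.60 in WT, 7.49-fold higher in BM (6.42 to 8.78) and 7.04-fold higher in BEM (6.04 to 8.24). Beside them, 6 of 8 smooth muscle markers were higher and 1 was lower in both mutant cultures, and 5 of 9 fibroblast markers were higher and none was lower. The part of those cells in the levels of Adam12, Adam33 and Timp3 was not tested.

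Adam11, Adam22 and Adam23, 3 of the ADAMs without a protease active site, were lower in the mutant cultures. Adam22 and Adam23 are receptors for LGI proteins at synapses. Adam22 was at 0.731 FPKM in BM and 0.843 in BEM, against 3.50 in WT, 4.78-fold lower in BM (4.12 to 5.57) and 4.15-fold lower in BEM (3.64 to 4.74). Adam11 lay under the mean, with 27 reads in BM, 41 in BEM and 233 in WT, 8.05-fold lower in BM (5.39 to 12.5) and 6.28-fold lower in BEM (4.49 to 8.98). Adam23 was at 5.58 FPKM in BM and 5.69 in BEM, against 9.44 in WT, and so stayed within 2-fold. Beside them, the 8 neuron markers, 3 of them measured, summed to 11.7 FPKM in BM, 11.1 in BEM and 5.32 in WT. Elavl3 and Snap25 were at 0 reads in BM, and the part of neurons in the levels of Adam11, Adam22 and Adam23 was not tested.

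The 21 other ADAMs, most of them known from the testis and epididymis, were all under the mean, none above 0.526 FPKM in any library. Adam5 was named for its reads, 19 in BM, 22 in BEM and 4 in WT, a ratio of 5.09 in BM (1.69 to 20.6) and 4.98 in BEM (1.69 to 19.9). The 7 testis markers summed to 0.809 FPKM in BM, 0.848 in BEM and 0.490 in WT. Adam28, a lymphocyte ADAM with an active site, reached 0.0114 FPKM at most.

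Proteoglycan-cleaving ADAMTS proteases differed in both directions. Adamts5, an aggrecanase, was at 20.3 FPKM in BM and 20.8 in BEM, against 0.889 in WT, from 3309, 4012 and 155 reads. It was 22.9-fold higher in BM (19.5 to 27.1) and 23.4-fold higher in BEM (19.95 to 27.7), the largest difference in the higher direction among the measured members. Adamts1, which cuts versican and aggrecan, was at 43.8 FPKM in BM and 43.0 in BEM, against 16.4 in WT. It was 2.67-fold higher in BM (2.53 to 2.82) and 2.62-fold higher in BEM (2.49 to 2.77). Adamts1 (85793827 to 85803113) and Adamts5 (85856173 to 85901828) are neighbours on the minus strand of chromosome 16 in GRCm38.

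Adamts4, the other main aggrecanase, was at 7.10 FPKM in BM and 6.94 in BEM, against 12.2 in WT, and Adamts9, a versicanase, at 3.75 and 3.73, against 7.50. Adamts9 was 1.997-fold lower in BM and 2.01-fold lower in BEM by FPKM, and with the pseudocount neither reached 2-fold. Adamts15, which also cuts versican and aggrecan, was at 1.62 FPKM in BM and 1.63 in BEM, against 5.17 in WT, 3.20-fold lower in BM (2.72 to 3.77) and 3.17-fold lower in BEM (2.73 to 3.71). Its neighbour on chromosome 9, Adamts8, had 3 reads in BM, 4 in BEM and 53 in WT, 16.5-fold lower in BM (5.34 to 82.5) and 14.6-fold lower in BEM (5.39 to 55.7). The versicanases were thus split, with Adamts1 higher and Adamts15 lower.

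The procollagen N-proteinases remove the amino-terminal propeptides of fibrillar collagens. Adamts14 was at 3.34 FPKM in BM and 3.604 in BEM, against 25.6 in WT, 7.66-fold lower in BM (6.85 to 8.59) and 7.10-fold lower in BEM (6.42 to 7.86). Adamts2 was at 15.8 FPKM in BM and 15.6 in BEM, against 31.3 in WT, a difference of 1.98-fold in BM (1.89 to 2.06) and 2.01-fold in BEM (1.92 to 2.09), and was not counted. Adamts3, under the mean, had 48, 69 and 78 reads in BM, BEM and WT. The summed level of the 3 enzymes was 19.6 FPKM in BM and 19.7 in BEM, against 57.6 in WT.

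Adamts6, a close relative of the fibrillin-binding Adamts10, was at 8.92 FPKM in BM and 9.58 in BEM, against 1.15 in WT. It was 7.79-fold higher in BM (6.43 to 9.52) and 8.37-fold higher in BEM (6.92 to 10.2). Adamts10 itself was at 15.9 FPKM in BM and 16.9 in BEM, against 25.7 in WT. This pair of related enzymes therefore differed in opposite directions, Adamts10 by less than 2-fold. Adamts7 (6.85, 6.95 and 10.9 FPKM in BM, BEM and WT) and Adamts12 (9.07, 9.10 and 6.53 FPKM), which both cut the cartilage protein COMP, stayed within 2-fold. Exons of Adamts9, Adam8, Adam15, Adam17, Adam19, Adamts4, Adamts7, Mmp11 and Mmp19 also overlap those of genes on the opposite strand, by 46 to 1381 bases. So do those of Adamts8, by 489 bases, and Timp4, by 90, both of which rest on few reads. Without strand the reads of such stretches cannot be told apart. Chchd10, which shares 155 exonic bases with Mmp11, was at 29.7 FPKM in BM and 30.4 in BEM, against 160 in WT.

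Of the low genes, Adamts19 had 3 reads in BM, 6 in BEM and 147 in WT, 45.7-fold lower in BM (15.3 to 224) and 27.1-fold lower in BEM (12.1 to 74.95). Adamts16 had 38 reads in BM, 59 in BEM and 3 in WT, a ratio of 13.6 in BM (4.31 to 68.7) and 17.8 in BEM (5.80 to 88.8). These genes were under 1 FPKM in every library. Summed over all 19 ADAMTS genes, the level was 138 FPKM in BM, 139 in BEM and 146 in WT, so the family's sum was nearly level while its composition was not. Adamts1 led the family in BM with 31.8% of that sum and in BEM with 30.9%, and Adamts2 led in WT with 21.5%.

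Of the 4 measured ADAMTS-like genes, 3 were higher in both mutant cultures. Adamtsl5 was at 18.2 FPKM in BM and 17.5 in BEM, against 2.47 in WT, 7.39-fold higher in BM (6.47 to 8.47) and 7.10-fold higher in BEM (6.22 to 8.13). Adamtsl4, whose human counterpart binds fibrillin and is needed for the lens suspension, was at 4.63 FPKM in BM and 5.02 in BEM, against 1.71 in WT. It was 2.70-fold higher in BM (2.24 to 3.28) and 2.93-fold higher in BEM (2.44 to 3.53). Adamtsl3 was at 1.502 FPKM in BM and 1.82 in BEM, against 0.425 in WT, 3.53-fold higher in BM (2.70 to 4.67) and 4.28-fold higher in BEM (3.31 to 5.61).

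Adamtsl1 went the other way, with 3.27 FPKM in BM and 3.09 in BEM, against 6.21 in WT. It was 1.90-fold lower in BM and 2.01-fold lower in BEM by FPKM, and with the pseudocount neither reached 2-fold. Adamtsl2, under the mean, had 47 reads in BM, 45 in BEM and 12 in WT, a ratio of 4.20 in BM (2.19 to 8.69) and 3.39 in BEM (1.77 to 7.05). Summed over the 5 genes, the level was 27.9 FPKM in BM and 27.7 in BEM, against 10.9 in WT.

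**Figure D4:**
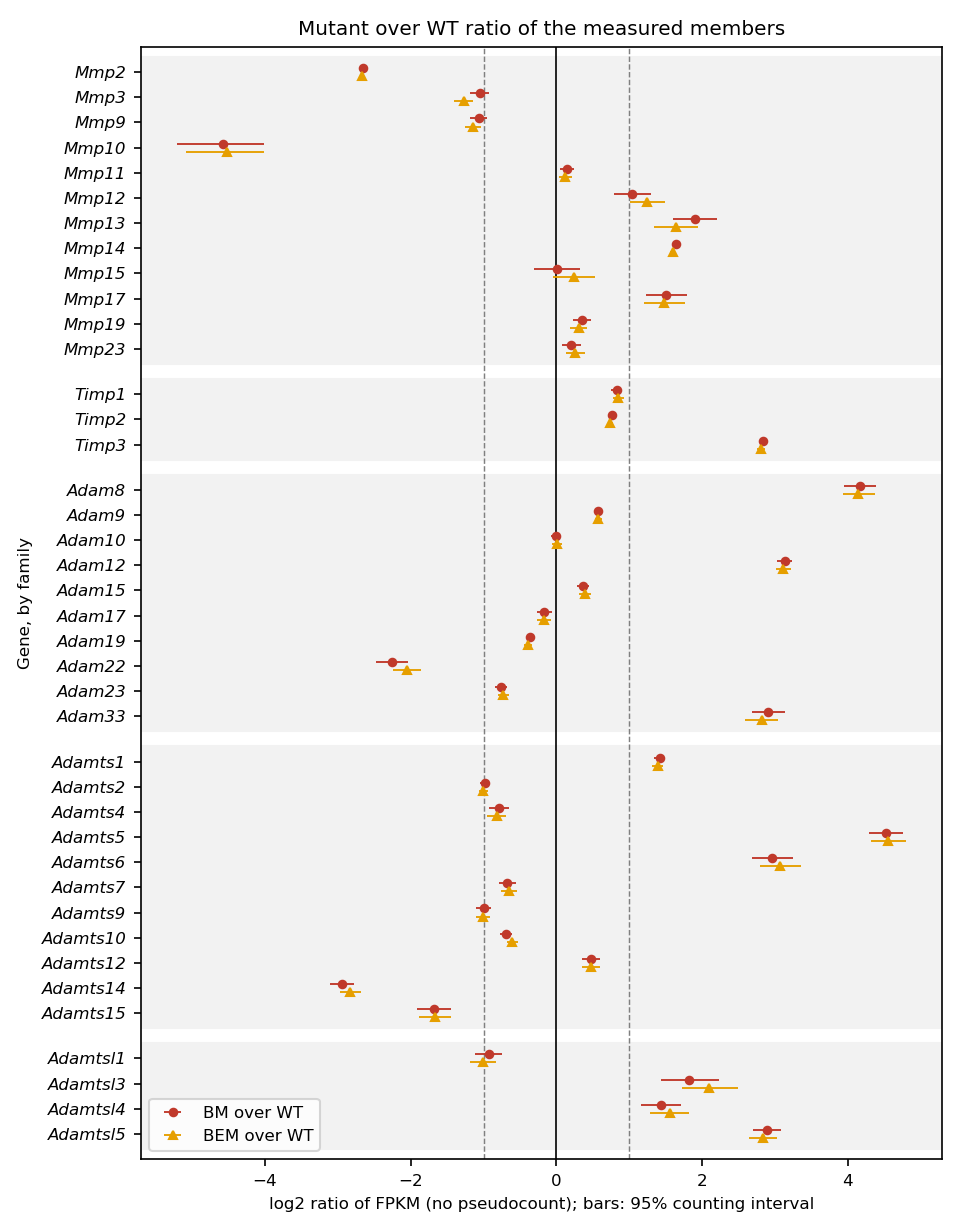
Log2 ratio of FPKM, without a pseudocount, of BM (circles) and BEM (triangles) over WT for the 40 measured members; bars are 95% exact counting intervals and dashed lines mark 2-fold. Adamts5 (22.9-fold) and Adam8 (17.9-fold) lie farthest on the higher side in BM, and Mmp10 (23.9-fold) farthest on the lower side.

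BEM and BM hardly differed in these genes. None of the 40 measured members was 2-fold apart between BEM and BM, beside 0.458% of all measured genes higher and 0.326% lower in BEM. Their ratios ran between 0.834 and 1.21, and for 5 of the 40, which is 12.5%, the counting interval did not hold a ratio of 1, beside 10.9% of all measured genes. These were Adamtsl3 (ratio 1.21, interval 1.02 to 1.44), Mmp12 (1.15, 1.005 to 1.32), Mmp14 (0.968, 0.9505 to 0.986), Mmp3 (0.860, 0.775 to 0.954) and Mmp13 (0.834, 0.725 to 0.959). Mmp14, Mmp3 and Mmp13 are among the genes whose read numbers, and so these intervals, are less certain. The mean chi-square per gene between BEM and BM was 1.73 over the members and 1.71 over all measured genes, so the members lay close to the rest in this measure. Against WT the interval lay wholly on 1 side of a ratio of 1 for 38 of the 40 members in BM, beside 80.3% of all measured genes, and for 38 in BEM, beside 80.8%. At these depths most genes pass that mark, and it says nothing of the spread between cultures.

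**Figure D5:**
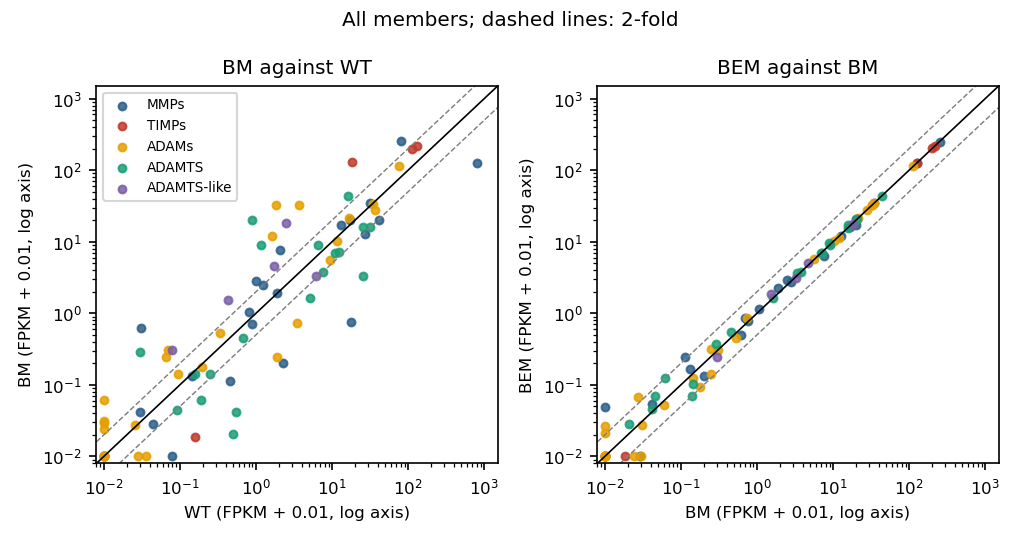
FPKM plus 0.01 of all 84 members on log axes, BM against WT (left) and BEM against BM (right), coloured by family, with dashed lines at 2-fold. Many genes lie beyond the 2-fold lines on the left, and none of the 40 measured members does on the right.

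The authors' deposited table carries a log2 ratio and an FDR for each gene, but the sources used here do not say how they were obtained without replicates. At an FDR under 0.05 it lists 8 of the 40 measured members in BM against WT, 7 higher and 1 lower, beside 7.15% of all measured genes. In BEM against WT the authors' deposited table also lists 8, 7 higher and 1 lower, beside 7.30% of all measured genes, and in BEM against BM it lists none, beside 0.00777%. Of the measured members, the higher ones in the authors' deposited table are Timp3, Adam8, Adam12, Adam33, Adamts5, Adamts6 and Adamtsl5, and the lower one is Mmp10. Members under the mean of 1 FPKM also have an FDR under 0.05 there in both comparisons against WT. These are Adamts16 and Mmp27, which are higher, and Mmp25, Adamts8 and Adamts19, which are lower. The shares above are over measured genes, and none over all genes under that mean is given beside these members. For Mmp2, with the most reads of all members in WT, the log2 ratio in the authors' deposited table is −2.65 in BM, at an FDR of 0.0962, and −2.67 in BEM, at an FDR of 0.0911. For Mmp14 the log2 ratio for BM in the authors' deposited table is 1.64, at an FDR of 0.345.

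Genes that act with these proteases were described from lists. Their counts stand beside shares over all measured genes of 10.5% higher and 15.3% lower in BM against WT. In BEM against WT these shares were 10.7% and 15.3%. Of 13 plasmin and proprotein convertase genes, which activate proMMPs, 9 were measured, with 2 higher and 1 lower in BM and 3 higher and 1 lower in BEM. Plau, the urokinase gene, was at 37.5 FPKM in BM and 39.2 in BEM, against 15.0 in WT, whereas Plat, the tissue-type plasminogen activator gene, was at 40.8 and 39.4, against 132 in WT. Both activators act on plasminogen, whose own gene Plg had 0 reads in all 3 libraries. Pcsk5 was at 2.80 FPKM in BM, 2.78 in BEM and 0.824 in WT, and Pcsk7 at 13.1, 14.5 and 6.87.

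Of 15 other protease inhibitors and partners, 11 were measured, with 5 higher and 4 lower in each mutant culture and a median log2 ratio of −0.52 in both. Tfpi2, a serine protease inhibitor of the matrix, was at 17.1 FPKM in BM and 16.9 in BEM, against 0.0265 in WT, where it had 1 read. A2m, a broad protease trap, was at 0.0425 FPKM in BM and 0.120 in BEM, against 20.3 in WT. Spock2, a testican proteoglycan, was at 0.135 and 0.159 FPKM, against 22.3 in WT. Serpina3n was at 2.51 FPKM in BM and 2.50 in BEM, against 71.8 in WT. Summed over the 15 genes, the level was 1900 FPKM in BM and 1876 in BEM, against 1307 in WT. The sum was thus higher than in WT while the median ratio was lower, and the list had no single direction.

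Of 10 partners of ADAM10 and ADAM17, 7 were measured and none was 2-fold apart in BM or BEM, with median log2 ratios of −0.03 and −0.21. Rhbdf1, a rhomboid-like protein needed to bring Adam17 to the surface, was at 15.4 FPKM in BM and 15.2 in BEM, against 29.7 in WT. Of 11 other metalloproteases, 6 were measured, with 3 higher and 1 lower in BM and 2 higher and 1 lower in BEM, at median log2 ratios of 0.41 and 0.31. Tll1, a tolloid protease that removes carboxy-terminal propeptides of procollagens, was at 18.2 FPKM in BM and 17.5 in BEM, against 1.09 in WT. Ece2 was at 2.78 FPKM in BM and 2.49 in BEM, against 1.06 in WT. The lower one was Ecel1, a neuronal endopeptidase gene, at 0.0568 FPKM in BM and 0.192 in BEM, against 123 in WT.

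Of 12 proteoglycan and glycoprotein substrates, 7 were measured, with 3 lower and none higher in either mutant culture and median log2 ratios of −0.25 in BM and −0.28 in BEM. The lower ones were Nid1, Nid2 and Matn2. The summed level of the 12 genes went the other way, at 1609 FPKM in BM and 1596 in BEM, against 1419 in WT. Nid1, a basement membrane linker, was at 150.2 FPKM in BM and 149 in BEM, against 478 in WT. Acan, the aggrecan gene, stayed under the mean, with 56 reads in BM, 58 in BEM and 3 in WT, and so did the 7 cartilage markers apart from 1, at a summed 7.34 FPKM in BM, 7.33 in BEM and 18.3 in WT. All 6 fibrillin and latent TGF-beta binding protein genes were measured, with 2 higher and 2 lower in each mutant culture. Ltbp2 was at 101 FPKM in BM and 96.6 in BEM, against 10.4 in WT, and Fbn1, the fibrillin-1 gene, at 137 and 139, against 43.7. Ltbp4 was at 1.33 FPKM in BM and 1.14 in BEM, against 13.9 in WT, and Ltbp3 at 39.4 and 39.3, against 87.9. The 8 endothelium markers summed to 3.77 FPKM in BM and 3.92 in BEM, against 6.53 in WT.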

How the data were processed

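RNA had been sequenced from 3 mouse cultures, 1 library each, after oligo-dT enrichment, per the labels' protocols. The deposited tables, 1 for each pair of libraries, held 47725 genes, and 4 further lines of each were not analysed here. Expression was deposited as FPKM, per the file headers. Per the file headers, each table also gave a log2 ratio, a p-value and an FDR by the authors. The submitters' processing notes list GRCm38, TopHat2, HTSeq and edgeR without versions or settings.

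Reads were recovered from FPKM as whole numbers to within 0.0001, for 12873 of 12875 measured genes and for 75.2% of these at an annotated length. The remaining genes fitted several lengths, and a length within 0.5% of an annotated one, or else the smallest of at least 20% of the gene length, was used, so that their reads may be off by a whole factor. Of the 84 members, 49 gave whole reads at the annotated gene length, 6 at that of 1 transcript, 20 at another length, and 9 had 0 reads. Recovered reads summed to 100.07% of the library total in BM, 100.05% in BEM and 100.36% in WT.

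Ratios were taken on log2 of the deposited FPKM plus 0.5, with no further scaling, for genes averaging 1 FPKM or more, and counted at 2-fold. Intervals are exact (Clopper-Pearson, 95%) on recovered reads and cover counting error only, since reads without molecular identifiers are not independent molecules. No test was possible with 1 library per line. Named in full were measured members 2-fold apart, Timp1 to Timp4, Mmp2, Mmp9, Mmp14, Adam10 and Adam17, and lower members with at least 20 reads in a library, a 4-fold ratio and an interval excluding 1. Lists gave up to 4 genes with the largest ratio. Plg and other listed genes outside that rule were chosen after their values were seen. The members and lists were chosen with earlier results of these data known. Positions came from GENCODE M21 and promoters from RefSeq (GRCm38.p6). Python 3.11.15, numpy 2.4.6, pandas 2.3.3 and scipy 1.17.1 were used, and the procedure was tested on simulated data.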

Additional observations from a re-analysis of the deposited data

How the results depend on the processing

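Of the members higher than in WT, 13 in BM and 13 in BEM in the main setting, 7 in BM and 7 in BEM were left with a mean of at least 10 FPKM, and likewise 7 and 7 at a 4-fold threshold. Of the members lower than in WT, 7 in each, the mean of at least 10 FPKM left 4 in BM and 4 in BEM, a 4-fold threshold left 3 and 3, and a pseudocount of 5 left 3 in BM and 4 in BEM. That pseudocount also left 9 higher members in BM and 9 in BEM. Under it Mmp13, Mmp17, Adamtsl3, Adamtsl4, Adam22, Adamts15, Mmp9, Adam11 and Mmp25 lost the 2-fold difference in both mutant cultures, and Mmp3 and Mmp27 did in BM. The stricter filter tests fewer genes and the larger pseudocount pulls low genes towards a ratio of 1. Counts at these other settings have no share over all genes beside them, so they cannot be set against the background. Median-of-ratios, upper quartile and TMM scaling, which shift all log2 ratios of BM over WT by 0.09, 0.10 and 0.16 and of BEM over WT by 0.08, 0.10 and 0.14, kept each count within 1.5 times the main one, as did a pseudocount of 0.05, no filter, the counting interval and the authors' ratios. No counted gene named in full changed direction under the scalings or pseudocounts. Between BEM and BM no measured member was 2-fold apart under any of them. Genes with few reads, such as Timp4, Mmp27, Adamts8 and Adamts19, rest on 3 or fewer reads in a library. No paired analysis was possible because each line had 1 library. No library could be left out for the same reason.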
